A study of Danio rerio with 72 samples.

Results

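The comparison described here is that of adult zebrafish telencephalon, the anterior forebrain, between fish exposed to fluoxetine as embryos and larvae and fish exposed to vehicle, all of them stressed as adults. Its members are the 12 libraries whose labels name the telencephalon and mark the fish as stressed, 6 per exposure, out of 72 libraries in the series, and 18367 of 31902 entries of the count table had enough reads to be tested. All fish carried the SR4G transgene, a destabilised green fluorescent protein under the control of glucocorticoid response elements, and the reporter transcript d4EGFP was counted as an entry of its own. The fluoxetine group had been kept in 54 ug/L fluoxetine, a blocker of serotonin reuptake, for 6 days from fertilization. The vehicle group was kept in 0.0053% ethanol for the same days. As recorded, the fluoxetine group had 0% ethanol, so ethanol and fluoxetine cannot be told apart. Tissue was taken at 6 months of age, with 5 dissected telencephala pooled per library. Matching unstressed groups and the hypothalamus of the same groups, each of 6 libraries, are used below only where they bear on the stressed telencephalon. The sources used here give neither the kind of stressor, nor the interval between stress and dissection, nor the hour of dissection. The labels do not say that the pools came from separate tanks or clutches, so p-values measure the spread between these pools, which may be partly technical.

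The circadian clock of vertebrate cells is a feedback loop of transcription. CLOCK, NPAS2 and BMAL proteins activate the genes of their own repressors, among them the PER and CRY proteins, CIART and the BHLHE40 and BHLHE41 factors, while the NR1D receptors repress, and the ROR receptors activate, the BMAL genes. In zebrafish most tissues hold clocks that light can set, and light also induces several cryptochrome and photolyase genes. The glucocorticoid receptor, the target of cortisol in fish, is a transcription factor that acts on response elements near genes such as FKBP5, KLF9 and PER1 and is the route by which stress hormone reaches gene expression in the brain.

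The libraries held 15984078 to 20960691 counts in the vehicle group and 16769716 to 20770145 in the fluoxetine group. The median correlation of a library's log2 levels with the others of its group was 0.964 to 0.976 for vehicle and 0.978 to 0.983 for fluoxetine. Of the telencephalic markers, TBR1 (ENSDARG00000004712) stood at 89.96 to 119.9 CPM (counts scaled to the library total with TMM factors) in vehicle and 107 to 141 CPM in fluoxetine libraries, while the hypothalamic HCRT, PMCH, AGRP and NKX2-4 genes and the hindbrain EN2 genes were at 0 to 1.12 CPM in all 12. Other markers of those regions were present. Hypothalamic NKX2-1 was at 14.4 to 20.65 CPM in vehicle and 16.4 to 22.6 CPM in fluoxetine libraries, and the OTP genes at 3.21 to 17.6 CPM and 4.18 to 20.07 CPM. Cerebellar PVALB7 was at 159 to 219.5 CPM and 153 to 181 CPM, CBLN12 at 16.2 to 33.6 CPM and 20.4 to 28.01 CPM, and CA8 at 12.05 to 23.01 CPM and 11.4 to 16.7 CPM. Photoreceptor and pineal genes were present at uneven levels: 30 such genes summed to 87.2 to 4256 CPM in vehicle libraries, highest in replicates 5 and 6 at 4256 and 3979 CPM, and to 19.8 to 823 CPM in fluoxetine libraries. The labels number the libraries of these tissues from 1 to 48, with replicates 1 to 3 in numbers 1 to 24 and replicates 4 to 6 in 25 to 48. Within each range every vehicle number (2, 7 and 11, then 26, 31 and 35) was lower than every fluoxetine number (15, 20 and 23, then 39, 44 and 47). If the numbers follow an order of handling, that order and the exposure cannot be told apart in these 12 libraries.

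Early fluoxetine was associated with 645 called genes, 3.51% of those tested, of which 213 (1.16%) were higher and 432 (2.35%) lower than in vehicle; called means a quasi-likelihood p from edgeR that was under 0.05 after Benjamini-Hochberg adjustment over all genes tested. Most differences were small. The median called gene differed by 0.54 on the log2 scale, or 1.45-fold, and 99 genes differed by 1 or more, 41 higher and 58 lower. The lowest and highest libraries of both groups left no overlap for 363 called genes (1.98% of all tested), 117 higher and 246 lower, against 581 (3.16%) non-overlapping genes in all. Fitted separately, libraries 1 to 24 gave 175 called genes (0.95%) and libraries 25 to 48 gave 49 (0.266%). Of the 637 called genes that could be tested in both ranges, 636 had the same direction in each, which their selection on the pooled libraries favours. The vehicle libraries weighed unevenly on the count: 1132 genes were called without vehicle replicate 2 and 1299 without vehicle replicate 5. Without vehicle replicate 1, 3, 4 or 6 it was 374 to 466, and without 1 fluoxetine library 371 to 464.

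Genes of the circadian clock held many of the lowest p-values. In fluoxetine fish several repressor genes were higher, both BMAL1 genes, npas2, rorca and rorcb were lower, and the cry3, cry4 and cry5 genes and the photolyases were lower. The gene lists used here and below were chosen with earlier results of these data known, so their counts are no independent evidence. Of 20 tested genes on a list of clock repressors and cryptochromes, 8 were higher and 4 lower. That was 60%, against 3.51% of all genes tested. The list's median log2 difference was 0.32, where all genes tested had a median of -0.007.

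**Figure D1:**
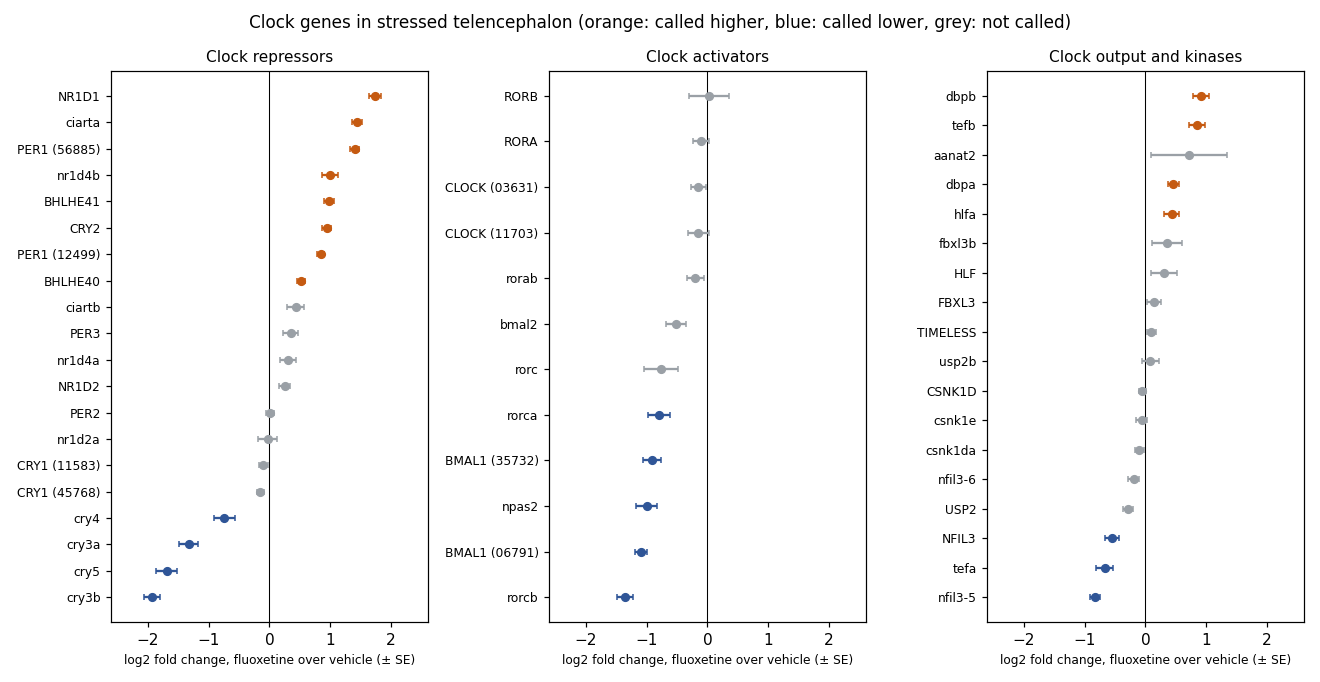
Log2 fold change (fluoxetine over vehicle, x axis, ± SE) of every tested gene on the 3 clock lists in stressed telencephalon, with 5-digit ID ends where genes share a symbol. Points in orange were called higher, in blue called lower and in grey not called; the 5 called activators all lie left of 0, while the repressor list runs from 1.74 for NR1D1 to -1.93 for cry3b.

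NR1D1, the nuclear receptor REV-ERB alpha that represses BMAL genes, had lowest, median and highest levels of 28.2, 33.6 and 39.1 CPM in vehicle and 102, 110.3 and 127 CPM in fluoxetine libraries. Every fluoxetine library was above every vehicle library, and the level was 3.34-fold higher (log2 difference 1.74 ± 0.10 SE, adjusted p = 1.97e-11, edgeR). The related nr1d4b was at 4.66, 6.74 and 7.85 CPM against 10.7, 13.9 and 14.6 CPM, 2-fold higher (log2 1.0 ± 0.13 SE, adjusted p = 1.18e-05, edgeR). Both genes separated the groups completely, whereas nr1d4a, at a median of 15.4 CPM in vehicle and 19.1 CPM in fluoxetine libraries, was not called (adjusted p = 0.19, edgeR).

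The gene ciarta, a zebrafish copy of the repressor CIART, was at 36.02, 41.3 and 49.2 CPM in vehicle and 106, 114 and 119.9 CPM in fluoxetine libraries. It was 2.71-fold higher with fluoxetine (log2 1.44 ± 0.08 SE, adjusted p = 3.07e-12, edgeR), and the groups lay far apart. Another inhibitor, cipca, is a copy of the CLOCK-interacting protein CIPC and stood outside the lists. It was at 2.34, 3.77 and 4.17 CPM against 14.4, 15.3 and 20.2 CPM, a rise of 4.58-fold (log2 2.20 ± 0.14 SE, adjusted p = 1.29e-10, edgeR). Its paralog cipcb was higher by 0.51 ± 0.09 SE on the log2 scale, again with no overlap.

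Among the period genes, which encode the repressor proteins that pair with cryptochromes, both PER1 copies were higher. PER1 (ENSDARG00000056885) was at 28.6, 30.6 and 37.4 CPM in vehicle and 78.05, 81.4 and 90.2 CPM in fluoxetine libraries, 2.64-fold higher (log2 1.40 ± 0.08 SE, adjusted p = 1.97e-11, edgeR). PER1 (ENSDARG00000012499) was at 192, 194 and 212 CPM against 335, 352 and 363 CPM, 1.79-fold higher (log2 0.84 ± 0.05 SE, adjusted p = 8e-11, edgeR). No library of one group reached the other for either copy. PER2, a light-responsive period gene in zebrafish, had medians of 327 and 331 CPM (log2 0.01 ± 0.07 SE, adjusted p = 0.943, edgeR), and PER3 of 181 and 229 CPM (log2 0.35 ± 0.12 SE, adjusted p = 0.0963, edgeR), so that neither passed and both overlapped between groups.

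BHLHE41 and BHLHE40 encode repressors that compete with CLOCK and BMAL for their binding sites. BHLHE41 was at 178, 204 and 246 CPM in vehicle and 376, 406 and 435 CPM in fluoxetine libraries, 1.97-fold higher (log2 0.98 ± 0.08 SE, adjusted p = 3.44e-09, edgeR). BHLHE40 was at 264, 273 and 306 CPM against 390.0, 400.0 and 419.9 CPM, 1.43-fold higher (log2 0.52 ± 0.06 SE, adjusted p = 4.19e-06, edgeR). CRY2, the cryptochrome that represses CLOCK and BMAL in mammals, was at 40.6, 46.8 and 51.2 CPM against 79.05, 88.6 and 94.9 CPM, 1.92-fold higher (log2 0.94 ± 0.08 SE, adjusted p = 7.12e-09, edgeR). All 3 genes separated the groups. The CRY1 genes were not called, with log2 differences of -0.10 ± 0.07 SE for ENSDARG00000011583 and -0.15 ± 0.06 SE for ENSDARG00000045768.

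Other cryptochromes went the opposite way. The gene cry3b was at 24.3, 30.4 and 43.4 CPM in vehicle and 6.56, 8.74 and 8.99 CPM in fluoxetine libraries and fell by 1.93 ± 0.13 SE on the log2 scale (adjusted p = 1.33e-10, edgeR). Its paralog cry3a was at 190.5, 265 and 461 CPM against 106, 116 and 121 CPM and fell by 1.33 ± 0.16 SE (adjusted p = 6.04e-06, edgeR), and cry4 fell by 0.74 ± 0.17 SE. These 3 and cry5, which encodes a photolyase rather than a repressor, are the 4 members of the list that were lower, and each did so without overlap between groups. The remaining 8 members were not called and lay between -0.15 and 0.43 on the log2 scale.

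The activating limb moved in one direction among the genes that passed. Of 12 tested activators 0 were higher and 5 lower, 41.7% against 3.51% of all genes tested. The list median was -0.64. BMAL1 (ENSDARG00000006791), the partner of CLOCK, was at 27.7, 31.5 and 41.4 CPM in vehicle and 13.5, 15.2 and 16.96 CPM in fluoxetine libraries and fell by 1.09 ± 0.10 SE on the log2 scale (adjusted p = 8.79e-08, edgeR). BMAL1 (ENSDARG00000035732) fell by 0.91 ± 0.15 SE, from a median of 10.9 to 5.995 CPM. The CLOCK paralog npas2 was at 23.6, 29.6 and 35.2 CPM against 10.7, 15.02 and 17.6 CPM and fell by 1.0 ± 0.17 SE (adjusted p = 0.000701, edgeR). For these 3 the groups did not overlap.

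The ROR receptors activate BMAL transcription. In the group of rorc-type genes, rorcb was at 20.8, 26.03 and 36.8 CPM in vehicle and 9.27, 10.5 and 12.04 CPM in fluoxetine libraries, a fall of 1.36 ± 0.13 SE on the log2 scale (adjusted p = 2.5e-07, edgeR). The gene rorca fell by 0.80 ± 0.18 SE (adjusted p = 0.0101, edgeR) with some overlap, at 9.21 to 16.6 CPM in vehicle and 5.03 to 9.59 CPM in fluoxetine libraries. The CLOCK genes were not called, at log2 differences of -0.15 ± 0.12 SE for ENSDARG00000003631 and -0.15 ± 0.17 SE for ENSDARG00000011703. The 7 activators that did not pass lay between -0.76 and 0.03.

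**Figure D2:**
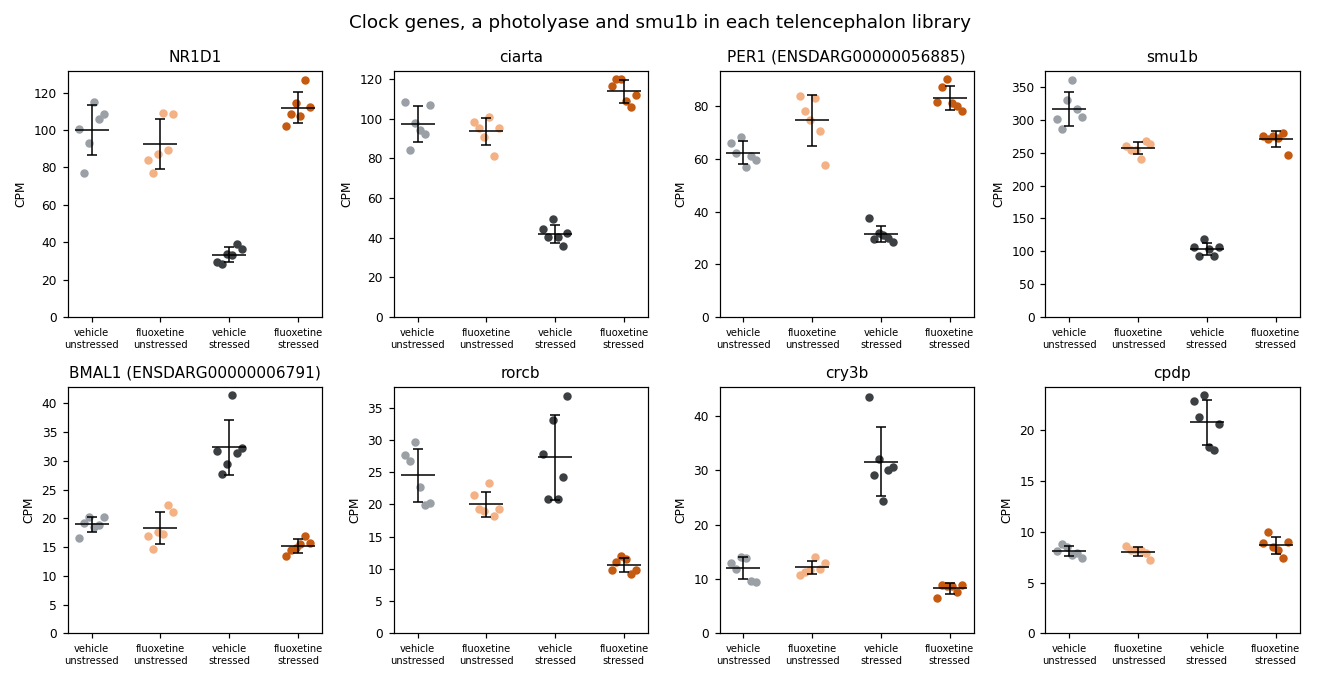
CPM (y axis, linear from 0) of 8 genes in each of the 24 telencephalon libraries by group (x axis), points being libraries and bars the mean ± SD of 6. In 7 of the panels the vehicle, stressed libraries stand apart from the other groups; in the rorcb panel the fluoxetine, stressed libraries do, at 9.27 to 12.04 CPM.

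Outputs of the clock divided. The PAR bZIP factors are activators driven by CLOCK and BMAL, and NFIL3 is a repressor at the same sites. Of 18 tested output genes and kinases 4 were higher and 3 lower, 38.9% against 3.51% of all genes tested. The PAR bZIP gene dbpb was at 98.3, 139.8 and 178 CPM in vehicle and 205, 259 and 285 CPM in fluoxetine libraries, 1.88-fold higher (log2 0.91 ± 0.13 SE, adjusted p = 7.49e-05, edgeR), and tefb, dbpa and hlfa were higher by 0.85, 0.46 and 0.43 on the log2 scale. The gene nfil3-5 was at 58.6, 61.5 and 77.5 CPM against 33.4, 35.6 and 38.1 CPM and fell by 0.83 ± 0.08 SE (adjusted p = 2.5e-07, edgeR). NFIL3 fell by 0.55 ± 0.11 SE, and tefa, unlike its paralog tefb, fell by 0.67 ± 0.14 SE. The casein kinase genes on this list were among the 11 not called.

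Photolyases repair ultraviolet damage in DNA with the energy of light. All 3 tested photolyase genes, a list drawn up after their values were seen, were lower with fluoxetine. The gene cpdp, for the pyrimidine dimer photolyase, was at 18.01, 20.9 and 23.4 CPM in vehicle and 7.397, 8.72 and 9.96 CPM in fluoxetine libraries and fell by 1.26 ± 0.09 SE on the log2 scale (adjusted p = 2.03e-10, edgeR). The gene cry-dash fell by 1.16 ± 0.10 SE, from a median of 26.4 to 12.2 CPM, and cry5 by 1.69 ± 0.17 SE, from 11.2 to 3.26 CPM. The base excision repair genes NEIL1, a glycosylase, and xrcc1, a scaffold, fell by 1.22 ± 0.14 SE and 0.69 ± 0.08 SE. They were 2 of 24 tested genes of that pathway (8.33%, against 3.51% of all genes tested), also listed after values were seen. None of these 5 genes overlapped between groups.

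The eye and pineal hold clocks of their own, and photoreceptor genes were highest in vehicle replicates 5 and 6. Without those 2 libraries the repressor list had 8 higher and 3 lower, the activators 4 lower and the outputs 3 higher and 4 lower. Photoreceptor and pineal sums stayed uneven among the remaining libraries, at 87.2 to 849.9 CPM in vehicle and 19.8 to 823 CPM in fluoxetine. Any part of eye or pineal tissue in the clock differences was not tested. Of the 24 clock genes called, 21 stayed called in the same direction under every setting that used both number ranges, and 14 did so within each range as well. The other 3 were cry4 and rorca, which lost the call without the pair of vehicle libraries named above (adjusted p = 0.054 and 0.0669, edgeR), and hlfa, which lost it there and when any 1 of 8 of the 12 libraries was left out (adjusted p up to 0.0914, edgeR).

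The levels of unstressed fish lay nearer to those of the fluoxetine, stressed libraries for NR1D1, cpdp and most genes in the plot of clock levels, and rorcb was an exception. NR1D1 had unstressed medians of 103 CPM with vehicle and 88.3 CPM with fluoxetine. Stress differed from no stress by -1.58 ± 0.10 SE in vehicle fish (adjusted p = 1.63e-11, edgeR) and by 0.28 ± 0.10 SE in fluoxetine fish (adjusted p = 0.0652, edgeR). The gene cpdp, at unstressed medians of 8.05 and 8.19 CPM, differed with stress by 1.36 ± 0.09 SE in vehicle fish (adjusted p = 1.09e-11, edgeR) and by 0.11 ± 0.09 SE in fluoxetine fish (adjusted p = 0.434, edgeR). Both stress contrasts share libraries with the exposure contrast and are given as values beside it. For rorcb stress differed by 0.15 ± 0.13 SE in vehicle fish (adjusted p = 0.397, edgeR) and by -0.92 ± 0.13 SE in fluoxetine fish (adjusted p = 3.55e-05, edgeR).

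The gene with the lowest p-value was smu1b, which encodes a relative of the spliceosomal protein SMU1. It was at 92.5, 105 and 119 CPM in vehicle and 247, 274 and 280.2 CPM in fluoxetine libraries, 2.61-fold higher (log2 1.38 ± 0.07 SE, adjusted p = 4.49e-13, edgeR). Vehicle libraries were uniformly low, and fluoxetine libraries were nearer to the unstressed groups, whose levels were 285, 311 and 361 CPM with vehicle and 241, 257 and 268 CPM with fluoxetine. Its paralog SMU1 (ENSDARG00000002538) had medians of 25.3 and 26.3 CPM and was not called (log2 -0.01 ± 0.09 SE, adjusted p = 0.977, edgeR).

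Other genes of low p-value stood outside the clock lists. The gene dhrs12, of the short-chain dehydrogenase family, was at 22.3, 22.99 and 25.4 CPM in vehicle and 11.6, 11.9 and 12.5 CPM in fluoxetine libraries and fell by 0.96 ± 0.07 SE on the log2 scale (adjusted p = 2.1e-09, edgeR). BLVRA, biliverdin reductase, fell by 1.41 ± 0.15 SE from a median of 16.7 to 6.17 CPM, and HMOX2, the constitutive haem oxygenase, by 0.73 ± 0.07 SE from 48.4 to 30.4 CPM. Haem oxygenase opens the haem ring to biliverdin and biliverdin reductase reduces that to bilirubin. These were 2 of 5 tested genes of haem breakdown (40%, against 3.51% of all genes tested), listed after their values were seen. NR1I2, the pregnane X receptor for foreign compounds, fell by 0.49 ± 0.09 SE (adjusted p = 0.0026, edgeR). The cold-inducible RNA-binding protein gene cirbpb fell by 0.58 ± 0.08 SE from a median of 938 to 640.4 CPM. DIO2, which makes the active thyroid hormone, fell by 0.74 ± 0.15 SE, from 107 to 67.3 CPM. Groups did not overlap for any of these genes.

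Among the genes with the largest rises, LAMP5, a membrane protein of a class of forebrain interneurons in mammals, was at 0.817, 2.52 and 4.303 CPM in vehicle and 5.697, 7.99 and 11.7 CPM in fluoxetine libraries (3.08-fold, log2 1.63 ± 0.36 SE, adjusted p = 0.011, edgeR). The gene si:dkey-253a1.2, whose role is not annotated, was 2.38-fold higher. PPARGC1A, a coactivator of mitochondrial genes, was 1.54-fold higher (adjusted p = 0.016, edgeR). PPARGC1A lost the call when either of 2 libraries was left out (adjusted p up to 0.0521, edgeR). Large falls outside the clock were those of si:ch1073-390k14.1 (1.64 ± 0.15 SE), CDA (ENSDARG00000111188), a cytidine deaminase (1.35 ± 0.29 SE), and si:dkeyp-116a7.2 (1.29 ± 0.16 SE), all without overlap. The symbol CDA is shared by 2 entries, and the other is not reported here.

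Some genes on a list of glucocorticoid receptor targets were called, and 3 of those were also on the clock lists. Of 40 tested targets 4 were higher and 2 lower (15%, against 3.51% of all genes tested), with a list median of 0.01. NR1D1 and both PER1 genes were 3 of the 4 higher. In vehicle fish stress differed from no stress by -1.58 for NR1D1 and by -0.99 and -0.98 for the PER1 genes. The same contrast was 3.76 for FKBP5, 4.16 for KLF9 and 3.21 for HSD11B2. Whether the receptor acted on these genes was not tested. The fourth higher gene was PDK2 (ENSDARG00000059054), a kinase that inhibits pyruvate dehydrogenase. It was at 13.6, 16.7 and 17.99 CPM in vehicle and 18.4, 22.9 and 34.3 CPM in fluoxetine libraries (1.52-fold, adjusted p = 0.0185, edgeR). HSD11B2, the enzyme that inactivates cortisol, was lower by 0.77 on the log2 scale, at 25.7, 56.7 and 78.01 CPM against 23.5, 29.3 and 43.99 CPM (adjusted p = 0.0214, edgeR). Its groups overlapped, and with only the 12 stressed libraries in the fit the adjusted p was 0.0792 (edgeR). HSD11B2 also lost the call when any 1 of fluoxetine replicates 1, 2 and 5 was left out (adjusted p up to 0.0591, edgeR). PDK2 (ENSDARG00000059054) lost it when any 1 of fluoxetine replicates 3 and 6 and vehicle replicates 1 and 6 was (up to 0.0619, edgeR). The more abundant PDK2 (ENSDARG00000020876), at medians of 71.3 CPM in vehicle and 75.9 CPM in fluoxetine libraries, was not called (log2 0.16 ± 0.10 SE, adjusted p = 0.365, edgeR).

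The other lower gene was IRS2 (ENSDARG00000075282), an adaptor of the insulin receptor, at 332, 353 and 410.4 CPM in vehicle and 289, 305 and 323 CPM in fluoxetine libraries, which fell by 0.23 ± 0.06 SE (adjusted p = 0.0281, edgeR) without overlap. It lost the call when any 1 of 6 libraries was left out (adjusted p up to 0.0799, edgeR) and with only the stressed libraries fitted (adjusted p = 0.0575, edgeR). The other copy, IRS2 (ENSDARG00000037099), was not called (log2 0.01 ± 0.08 SE, adjusted p = 0.976, edgeR).

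FKBP5, the receptor's co-chaperone and one of its most responsive targets, was at 738, 866 and 974 CPM in vehicle and 560.4, 624 and 670.0 CPM in fluoxetine libraries. The groups did not overlap, yet the difference of -0.49 ± 0.24 SE on the log2 scale did not pass (adjusted p = 0.242, edgeR). With only the stressed libraries fitted, the same difference had a standard error of 0.08 and an adjusted p of 0.00676 (edgeR). The unstressed libraries, which share the error estimate of the 4-group fit, were at 33.5 to 97.3 CPM with vehicle and 46.9 to 102 CPM with fluoxetine.

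KLF9, another direct target, was at 149, 159.5 and 204 CPM against 143, 173 and 181 CPM and was not called (log2 0.01 ± 0.24 SE, adjusted p = 0.982, edgeR). The reporter d4EGFP was at 39.6, 65.5 and 115 CPM in vehicle and 62.6, 136 and 143 CPM in fluoxetine libraries, with 1 fluoxetine library far below the other 5 (log2 0.73 ± 0.31 SE, adjusted p = 0.19, edgeR). The target tsc22d3 had medians of 190.4 and 159 CPM (adjusted p = 0.12, edgeR). All 3 overlapped between groups. The receptor gene NR3C1 (log2 -0.12 ± 0.10 SE) and CRH, the hypothalamic releasing hormone (log2 0.0 ± 0.10 SE), were not called. HSD11B2 was the 1 called gene of 16 on the stress axis list (6.25%, against 3.51% of all genes tested).

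**Figure D3:**
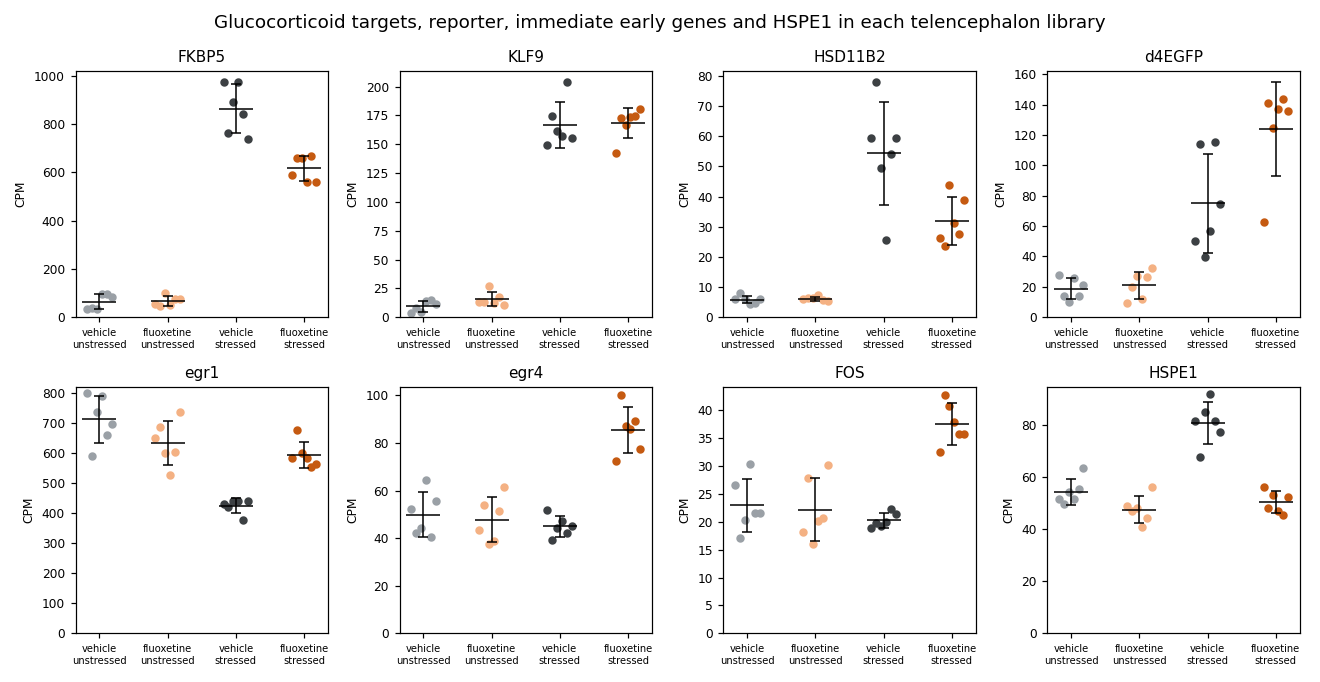
CPM (y axis, linear from 0) in each of the 24 telencephalon libraries by group (x axis) of 3 glucocorticoid receptor targets, the reporter, 3 immediate early genes and HSPE1, points being libraries and bars the mean ± SD of 6. Targets and reporter are high in both stressed groups, whereas egr4 and FOS are highest in the fluoxetine, stressed libraries, at 72.4 to 100.4 and 32.5 to 42.7 CPM.

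Immediate early genes, transcribed within minutes of neuronal activity, were higher where they passed, with a pair of exceptions. Of 55 tested, 7 were higher and 2 lower (16.4%, against 3.51% of all genes tested), with a median of 0.09. The gene egr4 was at 39.3, 44.8 and 51.9 CPM in vehicle and 72.4, 86.5 and 100.4 CPM in fluoxetine libraries (1.9-fold, log2 0.92 ± 0.12 SE, adjusted p = 2.87e-05, edgeR). FOS was at 18.8, 19.8 and 22.3 CPM against 32.5, 36.7 and 42.7 CPM (1.85-fold, log2 0.89 ± 0.14 SE, adjusted p = 0.000241, edgeR). Both genes separated the groups, and so did egr1, at 377, 435 and 442 CPM against 553, 582 and 677 CPM (log2 0.48 ± 0.08 SE, adjusted p = 0.000746, edgeR).

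The AP-1 gene JUNB (ENSDARG00000074378) was higher by 0.60 ± 0.14 SE, NPAS4 (ENSDARG00000055752), a factor induced by calcium in neurons, by 0.34 ± 0.08 SE, fosaa by 0.90 ± 0.24 SE and BTG2 by 0.42 ± 0.12 SE on the log2 scale. The exceptions were HOMER1, a postsynaptic scaffold, which fell by 0.32 ± 0.09 SE, and tiparp, an ADP-ribosyltransferase, which fell by 0.41 ± 0.11 SE. The second copies JUNB (ENSDARG00000104773) and NPAS4 (ENSDARG00000087753) were not called. JUNB, fosaa, BTG2, HOMER1 and tiparp lost the call when any 1 of 2, 7, 9, 10 and 8 of the 12 libraries was left out (adjusted p up to 0.0982, edgeR). Without vehicle replicates 5 and 6 NPAS4 (ENSDARG00000055752), BTG2 and tiparp were not called (adjusted p = 0.056, 0.093 and 0.0516, edgeR). Leaving out 1 library left 5 to 7 of these genes higher and 0 to 2 lower, and 0 were called among libraries 25 to 48 alone.

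Heat shock proteins fold other proteins, in the cytosol and, for HSPD1, HSPE1 and HSPA9, in mitochondria. Of 41 tested genes 9 were lower and 1 higher (24.4%, against 3.51% of all genes tested), with a median of -0.17. HSPE1, the mitochondrial co-chaperonin, was at 67.5, 81.5 and 91.9 CPM in vehicle and 45.5, 50.2 and 56.3 CPM in fluoxetine libraries and fell by 0.68 ± 0.08 SE on the log2 scale (adjusted p = 7.14e-06, edgeR). Its partner HSPD1 fell by 0.44 ± 0.07 SE and the mitochondrial HSPA9 by 0.35 ± 0.08 SE, all 3 without overlap.

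Among cytosolic chaperones, HSPA8 (ENSDARG00000037403) was at 118, 131 and 152 CPM against 80.3, 86.7 and 101 CPM and fell by 0.59 ± 0.08 SE (adjusted p = 3.14e-05, edgeR). The more abundant HSPA8 (ENSDARG00000068992), at medians of 1713 CPM in vehicle and 1525 CPM in fluoxetine libraries, overlapped between groups. It was not called (log2 -0.17 ± 0.10 SE, adjusted p = 0.301, edgeR). FKBP4, a co-chaperone of steroid receptors, fell by 0.43 ± 0.05 SE. HSPH1, DNAJB4, dnajb1b and hspa1b fell by 0.67, 0.41, 0.63 and 0.87, the last of them at a median of 3.63 CPM in vehicle. HSPA9 lost the call without fluoxetine replicate 5, dnajb1b when any 1 of 5 and hspa1b when any 1 of 7 libraries was left out (adjusted p up to 0.0888, edgeR). HSF2, a heat shock transcription factor and no chaperone, was the member that was higher, at 53.9, 58.04 and 64.8 CPM against 83.98, 87.95 and 91.2 CPM (1.48-fold, log2 0.57 ± 0.07 SE, adjusted p = 4.19e-06, edgeR). FKBP4 and HSP90AA1, which hold steroid receptors ready for hormone, were the 2 called of 18 receptor chaperones and coregulators. That was 11.1%, against 3.51% of all genes tested. HSP90AA1 fell by 0.41 ± 0.09 SE.

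For assembly factors of the mitochondrial respiratory chain a list of 57 was drawn up after several had been seen to fall, so its count is no independent evidence of a direction. In it 0 were higher and 19 lower (33.3%, against 3.51% of all genes tested). The median was -0.29, and the 38 that did not pass lay between -0.49 and 0.65. Among unstressed fish 0 of these genes were higher and 2 lower, with a median of -0.25, where 7.81% of all genes tested were called. In the stressed hypothalamus 0 were higher and 11 lower, with a median of -0.23, where 2.07% of all genes tested were called. SDHAF2, which attaches the flavin of succinate dehydrogenase, was at 48.7, 53.3 and 59.1 CPM in vehicle and 25.99, 28.9 and 31.1 CPM in fluoxetine libraries and fell by 0.91 ± 0.08 SE on the log2 scale (adjusted p = 5.04e-08, edgeR). HCCS (ENSDARG00000028131), the haem lyase of cytochrome c, fell by 1.0 ± 0.10 SE, from a median of 16.1 to 7.996 CPM. The more abundant HCCS (ENSDARG00000099358), at medians of 46.8 CPM in vehicle and 39.8 CPM in fluoxetine libraries, was not called (log2 -0.24 ± 0.16 SE, adjusted p = 0.41, edgeR). The complex III factor uqcc3 fell by 1.03 ± 0.14 SE and the intermembrane import gene chchd4b by 0.95 ± 0.15 SE. With 1 library left out the count ran from 11 to 26, highest without vehicle replicate 2.

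Subunits of the chain were listed apart. Of 92 nuclear genes of oxidative phosphorylation 0 were higher and 5 lower (5.43%, against 3.51% of all genes tested), with a median of -0.12. The fall was not particular to stressed fish. Among unstressed fish 0 of these genes were higher and 13 lower, with a median of -0.32, where 7.81% of all genes tested were called. NDUFV1, a catalytic subunit of complex I, was at 165, 176 and 179 CPM against 133, 137 and 142 CPM and fell by 0.34 ± 0.06 SE (adjusted p = 0.000911, edgeR). SDHA, CYC1, cox8b and cox7a1 fell by 0.31, 0.47, 0.56 and 1.65, and cox8b and cox7a1 lost the call when any 1 of 3 and of 8 libraries was left out (adjusted p up to 0.0962, edgeR). Of 13 subunit genes of the mitochondrial genome none was called, with a median of -0.32. Among unstressed fish 7 of these 13 were lower, with a median of -0.53. Of 81 ribosomal protein genes none was called in stressed fish.

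**Figure D4:**
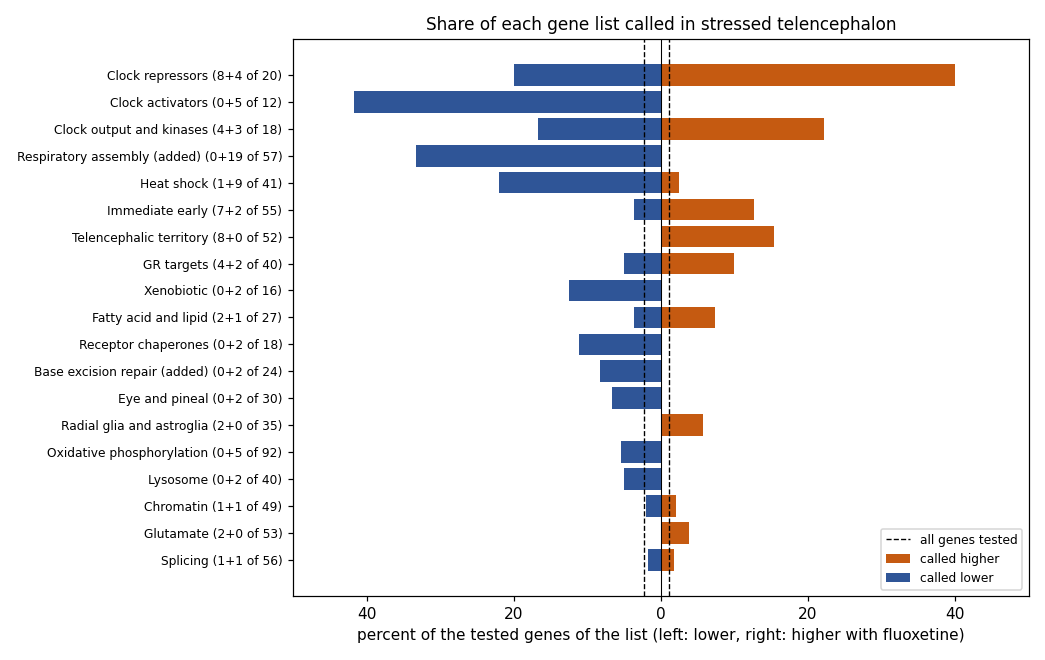
Share of the tested genes of each list that was called higher (right, orange) or lower (left, blue) with fluoxetine (x axis, percent), for lists of at least 10 tested genes with 2 or more called. The labels give the numbers called higher and lower of those tested. The word "added" marks lists drawn up after values were seen, and the other lists were chosen with earlier results of these data known. Dashed lines mark the shares over all genes, 1.16% higher and 2.35% lower; the 3 clock lists reach 38.9% to 60% called in both directions together.

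Transcription factors that lay out the telencephalon were higher where they passed. Of 52 tested, 8 were higher and 0 lower (15.4%, against 3.51% of all genes tested), with a median of 0.22. SP8 (ENSDARG00000011870), a factor of interneuron precursors, was at 18.9, 24.6 and 29.6 CPM in vehicle and 35.4, 50.3 and 58.9 CPM in fluoxetine libraries (2.03-fold, log2 1.02 ± 0.19 SE, adjusted p = 0.00202, edgeR), with no overlap. SP8 (ENSDARG00000056666) was 1.84-fold higher. LHX2, PRDM12, DLX5 and PRDM8 were higher by 0.69, 0.52, 0.41 and 0.27 on the log2 scale, each with overlap between groups. The mean log2 CPM over the 52 genes was 3.94 to 4.14 in vehicle and 4.2 to 4.4 in fluoxetine libraries. Lists for other regions and tissues without a called member included the 3 that follow. The hypothalamic and preoptic list of 18 had a median of 0.34. Its mean log2 CPM was 2.4 to 2.85 in vehicle and 2.7 to 3.1 in fluoxetine libraries, and 2 of its genes were higher without overlap. Of all genes tested, 3.16% had groups without overlap, counting both directions. The choroid plexus and ependyma list of 20 had a median of 0.23, and the cerebellar list of 19 one of -0.08. Their part in the result was not tested. More cells of a type and more RNA per cell cannot be told apart in such bulk tissue. The count was the least stable of those given: 1 to 10 were called with 1 library left out, lowest without vehicle replicate 1 and highest without vehicle replicate 5, and 3 without vehicle replicates 5 and 6. SP8 (ENSDARG00000011870) was the 1 member of the 8 called whichever library was left out.

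Genes of transmitter systems differed in few places, at shares near or below the 3.51% called of all genes tested. Of 25 tested serotonin genes 1 was lower (4%): mao, the monoamine oxidase that degrades serotonin, at 92.7, 108 and 119 CPM in vehicle and 77.1, 88.7 and 98.5 CPM in fluoxetine libraries, fell by 0.29 ± 0.08 SE on the log2 scale (adjusted p = 0.0438, edgeR) with overlap. It was not called when any 1 of 9 libraries was left out (adjusted p up to 0.107, edgeR). SLC6A4 and slc6a4b, the serotonin transporter genes that fluoxetine acts on, had too few reads to be tested. SLC6A3, the dopamine transporter, was at 3.27, 9.27 and 10.5 CPM against 14.9, 16.5 and 18.03 CPM (2.03-fold, log2 1.02 ± 0.20 SE, adjusted p = 0.00424, edgeR), the 1 called of 28 dopamine and noradrenaline genes (3.57%).

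Both copies of GRM2, a presynaptic glutamate receptor, were higher, the 2 called of 53 glutamate genes (3.77%, against 3.51% of all genes tested). GRM2 (ENSDARG00000004150) was at 17.7, 34.1 and 38.8 CPM against 52.9, 66.5 and 77.1 CPM (log2 1.02 ± 0.22 SE, adjusted p = 0.00821, edgeR), and GRM2 (ENSDARG00000007195) was higher by 0.40 ± 0.07 SE. Of 40 neuropeptide genes (2.5% called) the tachykinin tac3b fell by 1.15 ± 0.19 SE, from 5.44, 7.79 and 10.5 CPM in vehicle to 3.08, 3.47 and 4.31 CPM in fluoxetine libraries. None of these 3 genes overlapped between groups. SOX9, a radial glia factor, was higher in both copies, by 0.78 ± 0.18 SE for ENSDARG00000003293 and 0.41 ± 0.11 SE for ENSDARG00000043923. These were the 2 called of 35 radial glia genes (5.71%, against 3.51% of all genes tested), with a median of 0.03. The second was lost when any 1 of 7 libraries was left out (adjusted p up to 0.0859, edgeR). Among unstressed fish 9 of the 35 were higher and 0 lower, with a median of 0.22, where 7.81% of all genes tested were called. The first copy differed there by 0.66, and the interaction was called for the second copy only.

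No member was called in 16 of the 50 lists, those of GABA transmission (29 tested), ion channels (55), the cell cycle (24), trophic signalling (44), interferon and inflammation (26) and the proteasome (37) among them. Genes of other tissues gave a few calls. Of the 30 photoreceptor and pineal genes 2 were lower (6.67%, against 3.51% of all genes tested). The red cone opsin opn1lw2 was at 1.52, 8.37 and 152 CPM in vehicle and 0.0493, 0.654 and 1.89 CPM in fluoxetine libraries. The green cone opsin opn1mw1 was at 0.164, 0.911 and 73.9 CPM against 0, 0.0816 and 1.22 CPM. Their fitted differences were -5.81 ± 1.33 SE and -5.70 ± 1.53 SE on the log2 scale. Without vehicle replicates 5 and 6 they were -2.67 and -0.59 and neither was called, and in libraries 1 to 24 that of opn1mw1 was 0.15. Of 31 muscle genes MYL1 (ENSDARG00000014196) was called (3.23%), at 0, 0.0534 and 0.133 CPM against 0, 0.603 and 3.04 CPM. It was not called without vehicle replicate 1, 3 or 4. Nor was it called without fluoxetine replicate 3 (log2 2.65, adjusted p = 0.112, edgeR). That library had the highest muscle sum (975 CPM, the other 11 being 551 to 713). The more abundant MYL1 (ENSDARG00000017441) had medians of 3.33 CPM in vehicle and 4.13 CPM in fluoxetine libraries. It was not called (log2 0.83 ± 0.29 SE, adjusted p = 0.106, edgeR).

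Whether the effect of early fluoxetine differed between stressed and unstressed telencephalon was tested as an interaction. It was called for 147 genes (0.8% of those tested). Of these, 107 were also called among stressed fish and 50 among unstressed fish. The interaction shares its libraries with both of those contrasts, which favours such overlap. In smu1b the exposure difference was -0.30 ± 0.06 SE in unstressed fish (adjusted p = 0.013, edgeR) against 1.38 in stressed fish, an interaction of 1.69 ± 0.09 SE (adjusted p = 1.12e-11, edgeR). For NR1D1 the interaction was 1.85 ± 0.14 SE (adjusted p = 8.62e-09, edgeR), for ciarta 1.49 ± 0.11 SE (adjusted p = 2.48e-09, edgeR) and for cry3b -1.95 ± 0.18 SE (adjusted p = 2.12e-07, edgeR), and none of these 3 was called among unstressed fish.

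The repressor list had 11 of 20 members called in the interaction, the activators 5 of 12 and the outputs 4 of 18. The immediate early list had 3 of 55 and the heat shock list 4 of 41. Over all genes tested the share was 0.8%. Among 52 telencephalic factors 2 were called, SP8 (ENSDARG00000011870) and PRDM12, and among 57 respiratory assembly factors 2, SDHAF2 and HCCS (ENSDARG00000028131). The exposure gave 1435 called genes (7.81%) among unstressed fish, whose libraries are separate from the stressed ones. The 100 genes called in both made up 15.5% of the stressed and 6.97% of the unstressed calls, and 84 of them had the same direction.

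The same exposure in the stressed hypothalamus, again in separate libraries, gave 380 called genes (2.07% of 18380 tested). Of 17826 genes tested in both regions, 188 were called in both, 30.2% of the telencephalic and 50.1% of the hypothalamic calls, 49 higher and 139 lower in both regions and 0 in opposite directions. Of the 623 telencephalic calls tested in both regions, 586 had the same sign in the hypothalamus. The pools carry the same group labels in both regions, and the labels do not say whether the tissues came from the same fish. In the stressed hypothalamus the fluoxetine and vehicle library numbers interleaved within each range. Each fluoxetine number was lower than the vehicle number of the same replicate, but whether replicate numbers pair libraries was not settled. Any part of the number order in these results was not tested.

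**Figure D5:**
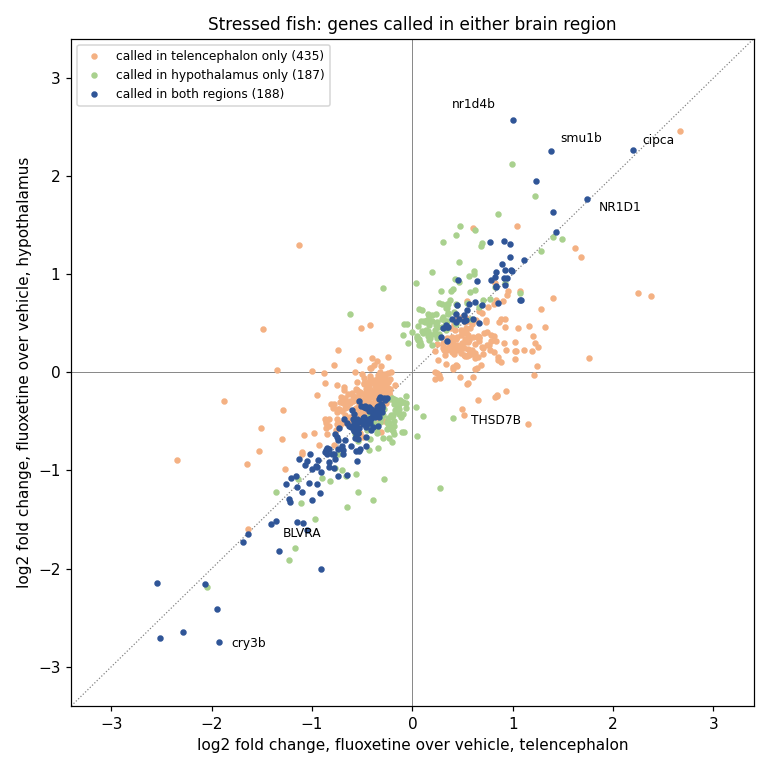
Log2 fold change of fluoxetine over vehicle in stressed telencephalon (x axis) against stressed hypothalamus (y axis) for the 810 genes called in either region, 3 of them beyond the axes; the dotted line marks equality. The 188 genes called in both (blue) all lie in the lower left or upper right of the plot.

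A difference between the regions was called for 4 of 19144 genes (0.0209%). The clock gene nr1d4b was 2-fold higher in telencephalon and 5.93-fold higher in hypothalamus, a log2 difference between regions of -1.54 ± 0.28 SE (adjusted p = 0.00902, edgeR). The gene smu1b was 2.61-fold and 4.78-fold higher, a difference of -0.84 ± 0.11 SE (adjusted p = 8.7e-06, edgeR). THSD7B, a membrane protein with thrombospondin repeats, was higher by 0.49 in telencephalon and at -0.37 in hypothalamus (difference 0.90 ± 0.16 SE, adjusted p = 0.00902, edgeR), and the metalloproteinase adam19a by 0.52 against -0.44 (difference 0.98 ± 0.19 SE, adjusted p = 0.0244, edgeR). Neither gene was called in the hypothalamus, and adam19a was not called in telencephalon when any 1 of 8 libraries was left out (adjusted p up to 0.102, edgeR). SP8 (ENSDARG00000011870) and the opsins were called in telencephalon and not in hypothalamus, but their difference between regions did not pass.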

How the data were processed

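RNA was measured by stranded, polyadenylated RNA-seq of column-extracted total RNA, per the labels. Whole-number read counts per gene were deposited by the authors in 1 table of 31902 entries. Tools named in the submitters' processing notes are bcl2fastq 2.17.1.14, cutadapt, STAR 2.5 and DESeq2. The counting program, strand setting, build and annotation were not given in the sources used here, so reads of overlapping or near-identical genes may be shared. Symbols were matched for 29178 of 31901 identifiers, and 6136 entries share one.

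The 24 telencephalon libraries were fitted as 4 groups in edgeR 4.0.16 (R 4.3.3) with TMM factors. Genes were kept by filterByExpr (10 counts in enough libraries, 15 summed over all), and F-tests used the robust quasi-likelihood, with Benjamini-Hochberg adjustment over the genes tested and a threshold of 0.05. Hypothalamus was fitted alike, and the region difference on 48 libraries in 8 groups. The script was tested on simulated data, and a check for duplicate libraries found none. Replicate numbers were not used as pairs in the main fit. Residuals of 3 of 6 same-numbered pairs exceeded a correlation of 0.1, and 2 of 6 fluoxetine libraries matched best with their own number. These values do not settle whether the numbers pair libraries. Alternatives included DESeq2 1.42.0.

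Groups and the first 46 gene lists were chosen with earlier results of these data known, and 4 lists were added after values were seen. The rule for named genes took a panel of 10 symbols, the 6 lowest p each way, the 8 largest called changes each way with a symbol and no overlap (log2 CPM averaging 1 or more), up to 4 called members per list, and the 6 interaction and 4 region genes of lowest p; other list members were chosen after their values were seen. The text prints part of them. No reference sequence was at hand, so no sequence is printed and the planned count of promoter motifs was not run. Some named genes are not reported here.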

Additional observations from a re-analysis of the deposited data

Results flagged for a closer look

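A single stressed library stood apart from the other 5 of its group, with a gap to the nearest library, relative to the group's range, past Dixon's critical value, in 19 of 224 gene and group pairs examined. Chance alone gives about 1 in 20 groups (5%), or 11.2 pairs. Among vehicle libraries, replicate 4 was the highest for BMAL1 (ENSDARG00000006791) at 41.41 CPM, CYC1 at 266.2 CPM, NEIL1 at 24.1 CPM and NFIL3 at 17.47 CPM. Vehicle replicate 1 was the highest for HSPH1 at 31.38 CPM and the lowest for SP8 (ENSDARG00000056666) at 3.542 CPM. Vehicle replicate 3 was the highest for nfil3-5 at 77.53 CPM, and vehicle replicate 6 for PER1 (ENSDARG00000012499) at 211.9 CPM. Vehicle replicate 5 was the lowest for egr1 at 377.4 CPM.

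Among fluoxetine libraries, replicate 1 was the lowest for both the reporter d4EGFP, at 62.61 CPM, and KLF9, at 142.8 CPM. Replicate 5 was the lowest for chchd4b at 5.474 CPM, for NR3C1 at 92.56 CPM and for tefa at 143.7 CPM, and the highest for PPARGC1A at 6.164 CPM. Replicate 6 was the highest for cipca at 20.18 CPM and the lowest for smu1b at 246.9 CPM. Replicate 4 was the lowest for adam19a at 4.475 CPM, and replicate 3 the highest for MYL1 (ENSDARG00000014196) at 3.045 CPM.

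The fluoxetine effect differed between stressed and unstressed fish, by the interaction test at an adjusted p under 0.05 (edgeR), for 43 of the named genes. Values below are the log2 effect in stressed fish minus that in unstressed fish. Positive differences among clock genes were 2.0 for cipca, 1.85 for NR1D1, 1.49 for ciarta, 1.22 for BHLHE41, 1.1 for dbpb, 0.84 for nr1d4b, 0.79 for CRY2 and 0.67 for BHLHE40. The PER1 genes differed by 1.14 (ENSDARG00000056885) and 0.81 (ENSDARG00000012499). Among immediate early genes egr4 differed by 0.99, FOS by 0.94 and egr1 by 0.65. The other positive differences were 1.69 for smu1b, 1.1 for SP8 (ENSDARG00000011870), 0.72 for PRDM12, 0.7 for HSF2 and 0.64 for SOX9 (ENSDARG00000043923).

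Negative differences among cryptochromes and photolyases were -2.22 for cry5, -1.95 for cry3b, -1.49 for cry3a, -1.25 for cpdp and -1.18 for cry-dash. Clock activators, nuclear receptors and NFIL3 genes differed by -1.65 for npas2, -1.48 for BMAL1 (ENSDARG00000035732), -1.04 for BMAL1 (ENSDARG00000006791), -1.28 for rorca, -1.07 for rorcb, -0.89 for nfil3-5 and for NR1I2, and -0.72 for NFIL3. Chaperones differed by -0.93 for dnajb1b, -0.52 for HSPA8 (ENSDARG00000037403) and -0.49 for HSPE1. Heme and mitochondrial genes differed by -1.68 for BLVRA, -1.01 for HCCS (ENSDARG00000028131), -0.76 for SDHAF2 and -0.74 for HMOX2. The repair genes NEIL1 and xrcc1 differed by -0.93 and -0.63. The remaining values were -1.76 for si:ch1073-390k14.1, -1.08 for dhrs12 and -8.85 for opn1mw1, a cone opsin.

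The stressed fluoxetine effect differed between telencephalon and hypothalamus for 4 genes at an adjusted p under 0.05 (edgeR). As telencephalon minus hypothalamus on the log2 scale, these were adam19a at 0.98, THSD7B at 0.9, smu1b at -0.84 and nr1d4b at -1.54.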

How the results depend on the processing

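The 645 calls between stressed groups became 1320 with the DESeq2 Wald test, 175 in libraries 1 to 24, 49 in libraries 25 to 48 and 371 to 1299 without 1 library. The lowest count came without fluoxetine replicate 6 and the highest without vehicle replicate 5 (43.1% of calls higher, against 33%); without vehicle replicate 2 it was 1132 (40.5%). Without vehicle replicates 5 and 6, an alternative chosen after seeing the data, it was 867, of which 503 were among the 645. The 147 interaction calls became 400 with the DESeq2 Wald test, 36 in libraries 1 to 24, 18 in libraries 25 to 48 and 109 to 220 without 1 library. The 4 region calls became 9 with library number range as a term. With the replicate block the 3 counts were 1363 (48.2% higher), 223 and 17. Whether the numbers pair libraries was not settled: 3 of 6 residual correlations exceeded 0.1, and 2 of 6 fluoxetine libraries matched best with their own number. The cause of these changes was not tested.

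Of 93 named genes called, 64 kept direction and call in every setting other than the single number ranges, and 30 in those too. Of the 5 named genes that changed sign, 4 were not called and lay near 0. CRH moved to 0, 0 and -0.03 with DESeq2 size factors, the DESeq2 Wald test and libraries 1 to 24, to -0.02 without vehicle replicates 5 and 6, and ranged from -0.03 to 0.04 without 1 library. KLF9 moved to 0 in libraries 1 to 24 and ranged from -0.02 to 0.08 without 1 library. PER2 moved to 0 in libraries 1 to 24 and ranged from -0.02 to 0.04 without 1 library. SMU1 moved to 0.07 in libraries 1 to 24, to 0 with the replicate block and ranged from -0.05 to 0.07 without 1 library. The fifth was the cone opsin opn1mw1, called at -5.70 (adjusted p = 0.0433, edgeR), which moved to 0.15 in libraries 1 to 24, where it was not called. Depth limits genes near the filter of 10 counts, where a missed call does not show equal levels.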
